A study of Mus musculus with 6 samples.

Results

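Open chromatin was described at 10 mouse genes of innate sensing, the Toll-like receptor genes Tlr1, Tlr2, Tlr3, Tlr4, Tlr5, Tlr6, Tlr9, Tlr11 and Tlr12 and the adaptor gene Myd88. They were taken by name from 21900 protein-coding genes of the mouse annotation, of which 16247 had a peak in every library. A peak was assigned to a gene when it overlapped the gene body extended by 10 kb on each side, and all 10 genes had peaks in every library. Monocytes, labelled as blood cells, came from PF4cre-iDTR mice given diphtheria toxin and labelled thrombocytopenic (DTR, 3 libraries), and from WT mice that also received diphtheria toxin (WT, 3 libraries). PF4cre is Cre recombinase under the platelet factor 4 promoter, which is active in megakaryocytes, and iDTR is a Cre-dependent diphtheria toxin receptor. Each library was made by ATAC-seq, in which the transposase Tn5 inserts sequencing adaptors into accessible DNA. The series title speaks of histone modifications, but each sample and its library protocol are labelled as ATAC-seq. The labels give no sex or age and do not say whether the 3 libraries of a group came from separate mice or pools, so the p-values measure the spread between these libraries, which may be technical.

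Toll-like receptors are membrane proteins that bind conserved microbial molecules outside the cell or in endosomes. They pass the signal through cytoplasmic TIR domains to adaptor proteins, and all members described here except TLR3 use the adaptor MyD88, which recruits IRAK kinases and leads to NF-kB and MAP kinase activation. Monocytes use these receptors to start inflammatory cytokine production on contact with bacteria, parasites or viruses.

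The promoters at which the peaks were placed are shown for 5 members, as the 250 bases upstream of the annotated start on the coding strand. The sequences are from the RefSeq promoter table for GRCm38.p6, which matched 9 of the 10 genes, with 11 promoters among them. Tlr1 is shown because its promoter peak differed in form between libraries, Tlr6, Tlr11 and Myd88 because they hold the same interferon-type motif, and Tlr9 because it holds both a PU.1-type and an AP-1-type match. Capitals mark matches to the 7 motifs listed after the sequences, on either strand.
Tlr1 promoter, chr5:64933559-64933808, minus strand: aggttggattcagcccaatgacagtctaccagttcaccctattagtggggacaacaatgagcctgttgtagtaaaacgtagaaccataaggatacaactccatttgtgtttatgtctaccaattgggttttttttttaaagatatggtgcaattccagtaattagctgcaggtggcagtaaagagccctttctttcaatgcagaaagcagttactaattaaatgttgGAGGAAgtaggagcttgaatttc
Tlr6 promoter 1, chr5:64959167-64959416, minus strand: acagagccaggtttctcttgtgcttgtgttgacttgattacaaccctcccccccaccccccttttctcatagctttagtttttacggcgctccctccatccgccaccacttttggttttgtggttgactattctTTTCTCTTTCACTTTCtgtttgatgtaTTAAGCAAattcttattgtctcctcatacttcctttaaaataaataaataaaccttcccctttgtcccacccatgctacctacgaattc
Tlr9 promoter, chr9:106222348-106222597, plus strand: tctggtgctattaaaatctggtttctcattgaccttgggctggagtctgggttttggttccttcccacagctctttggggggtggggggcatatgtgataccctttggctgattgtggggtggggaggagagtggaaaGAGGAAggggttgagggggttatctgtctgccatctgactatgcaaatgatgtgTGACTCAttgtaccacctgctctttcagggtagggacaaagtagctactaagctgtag
Tlr11 promoter, chr14:50357664-50357913, plus strand: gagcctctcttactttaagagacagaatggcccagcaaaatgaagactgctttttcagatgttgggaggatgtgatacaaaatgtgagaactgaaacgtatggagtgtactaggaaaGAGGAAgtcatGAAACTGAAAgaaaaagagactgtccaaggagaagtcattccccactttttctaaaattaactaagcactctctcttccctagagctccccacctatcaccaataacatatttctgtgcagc
Myd88 promoter, chr9:119340019-119340268, minus strand: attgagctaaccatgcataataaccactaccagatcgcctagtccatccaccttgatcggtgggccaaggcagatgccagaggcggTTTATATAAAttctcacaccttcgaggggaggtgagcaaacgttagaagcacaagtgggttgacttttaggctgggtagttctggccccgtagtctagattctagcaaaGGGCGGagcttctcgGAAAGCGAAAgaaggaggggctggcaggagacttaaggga

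Motifs were searched on both strands in 300 bases, 250 before and 50 after each start. A match describes letters and is not a binding site. The PU.1-type core GAGGAA, named for the ETS factor that directs monocyte development, was found in 3 of the 11 promoters (Tlr1, Tlr9 and Tlr11) and in 28.3% of 32817 promoters of the table. The interferon-type element, GAAA, any 2 bases and GAAA again, was found in 3 (Tlr6, Tlr11 and Myd88) and in 3.43% of the table. In Tlr6 it occurred at 2 overlapping positions that begin 116 and 110 bases before the start, on the strand opposite to the printed coding strand. In Tlr11 the interferon-type element, 122 bases before the start, lies close to a GAGGAA core that begins 133 bases before it. In Myd88 it begins 40 bases before the start. The NF-kB-type motif, GGGA, any base and TTTCC, was found in Tlr3 alone among the 11 promoters and in 0.411% of the table, and the AP-1-type TGANTCA in Tlr9 alone and in 7.81%. The C/EBP-type TTGCNNAA was found in Tlr3 and Tlr6 and in 10.8% of the table, the GC box GGGCGG in Myd88, Tlr2, Tlr3 and Tlr5 and in 35.6%, and the TATA box TATAAA in Myd88 and Tlr6 and in 13.6%. In Myd88 the TATA box matches on opposite strands overlap each other.

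The deposited lists held 84029, 81567 and 81579 peaks in DTR libraries 1 to 3 and 78162, 77867 and 80475 peaks in WT libraries 1 to 3. Every DTR list was thus longer than every WT list, and the DTR lists covered 48.1 to 50.1 Mb of the genome against 43.8 to 47.7 Mb for the WT lists. Each peak carries the authors' fold over background, which is called fold here. Strong and weak refer to fold alone and not to the authors' q-value, which can order peaks otherwise. A peak list holds no read counts, so the depth behind a peak is unknown, and more cells with an open site cannot be told apart from a site more open in each cell. The build of the peak coordinates is not given in the sources used here, but over 20 chromosomes 31.1% to 51.0% of GRCm38.p6 promoters held a peak in every library, and 1.89% to 6.03% did so after a shift by 20 kb. All 8 monocyte marker genes (Csf1r, Ccr2, Cx3cr1, Ly6c2, Spi1, Itgam, Cebpb and Fcgr1) had a peak near an end of the gene in every library. So did 2 of 6 megakaryocyte and platelet markers, 4 of 7 neutrophil, 2 of 5 B cell, 2 of 6 T and NK cell, 4 of 6 erythroid and 5 of 5 dendritic cell markers. Among the megakaryocyte and platelet markers, Pf4 and Gp9 had a gene-end peak in every library and Ppbp and Gp6 in none. The other markers with one in no library were Elane for neutrophils, Ms4a1 and Pax5 for B cells, Ncr1 and Gzma for T and NK cells, and Alas2 and Slc4a1 for erythroid cells. Summed peak width over the monocyte list ran from 41154 to 43288 bp in DTR libraries and from 38759 to 40053 bp in WT libraries. Over the dendritic cell list it ran from 27246 to 27914 bp in DTR libraries and from 25408 to 26958 bp in WT libraries, and the ranges of the other lists overlapped. The part of these differences in the results at the receptor genes was not tested.

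Peaks of the 6 lists that overlapped were joined into regions, numbered along the chromosome within each gene. The windows of the 10 genes held 38 regions, 19 reaching into gene bodies and 19 in the flanks, and none was shared by 2 of the genes. Of these, 33 (86.8%) had a peak in all 6 libraries, against 68712 of 92757 regions of the genome (74.1%). No region was found in all DTR and no WT libraries, or the reverse, where the genome held 0.82% DTR-only and 0.0992% WT-only regions. The 33 regions had a median width of 919 bp, against 659 bp over all such regions, and their mean folds ran from 2.42 to 11.5 with a median of 6.33, against 5.8. Peaks therefore lay at the same places in every thrombocytopenic and control library, apart from 5 regions that were missing from between 1 and 5 of the 6 libraries, as the map of peaks around each gene shows.

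**Figure D1:**
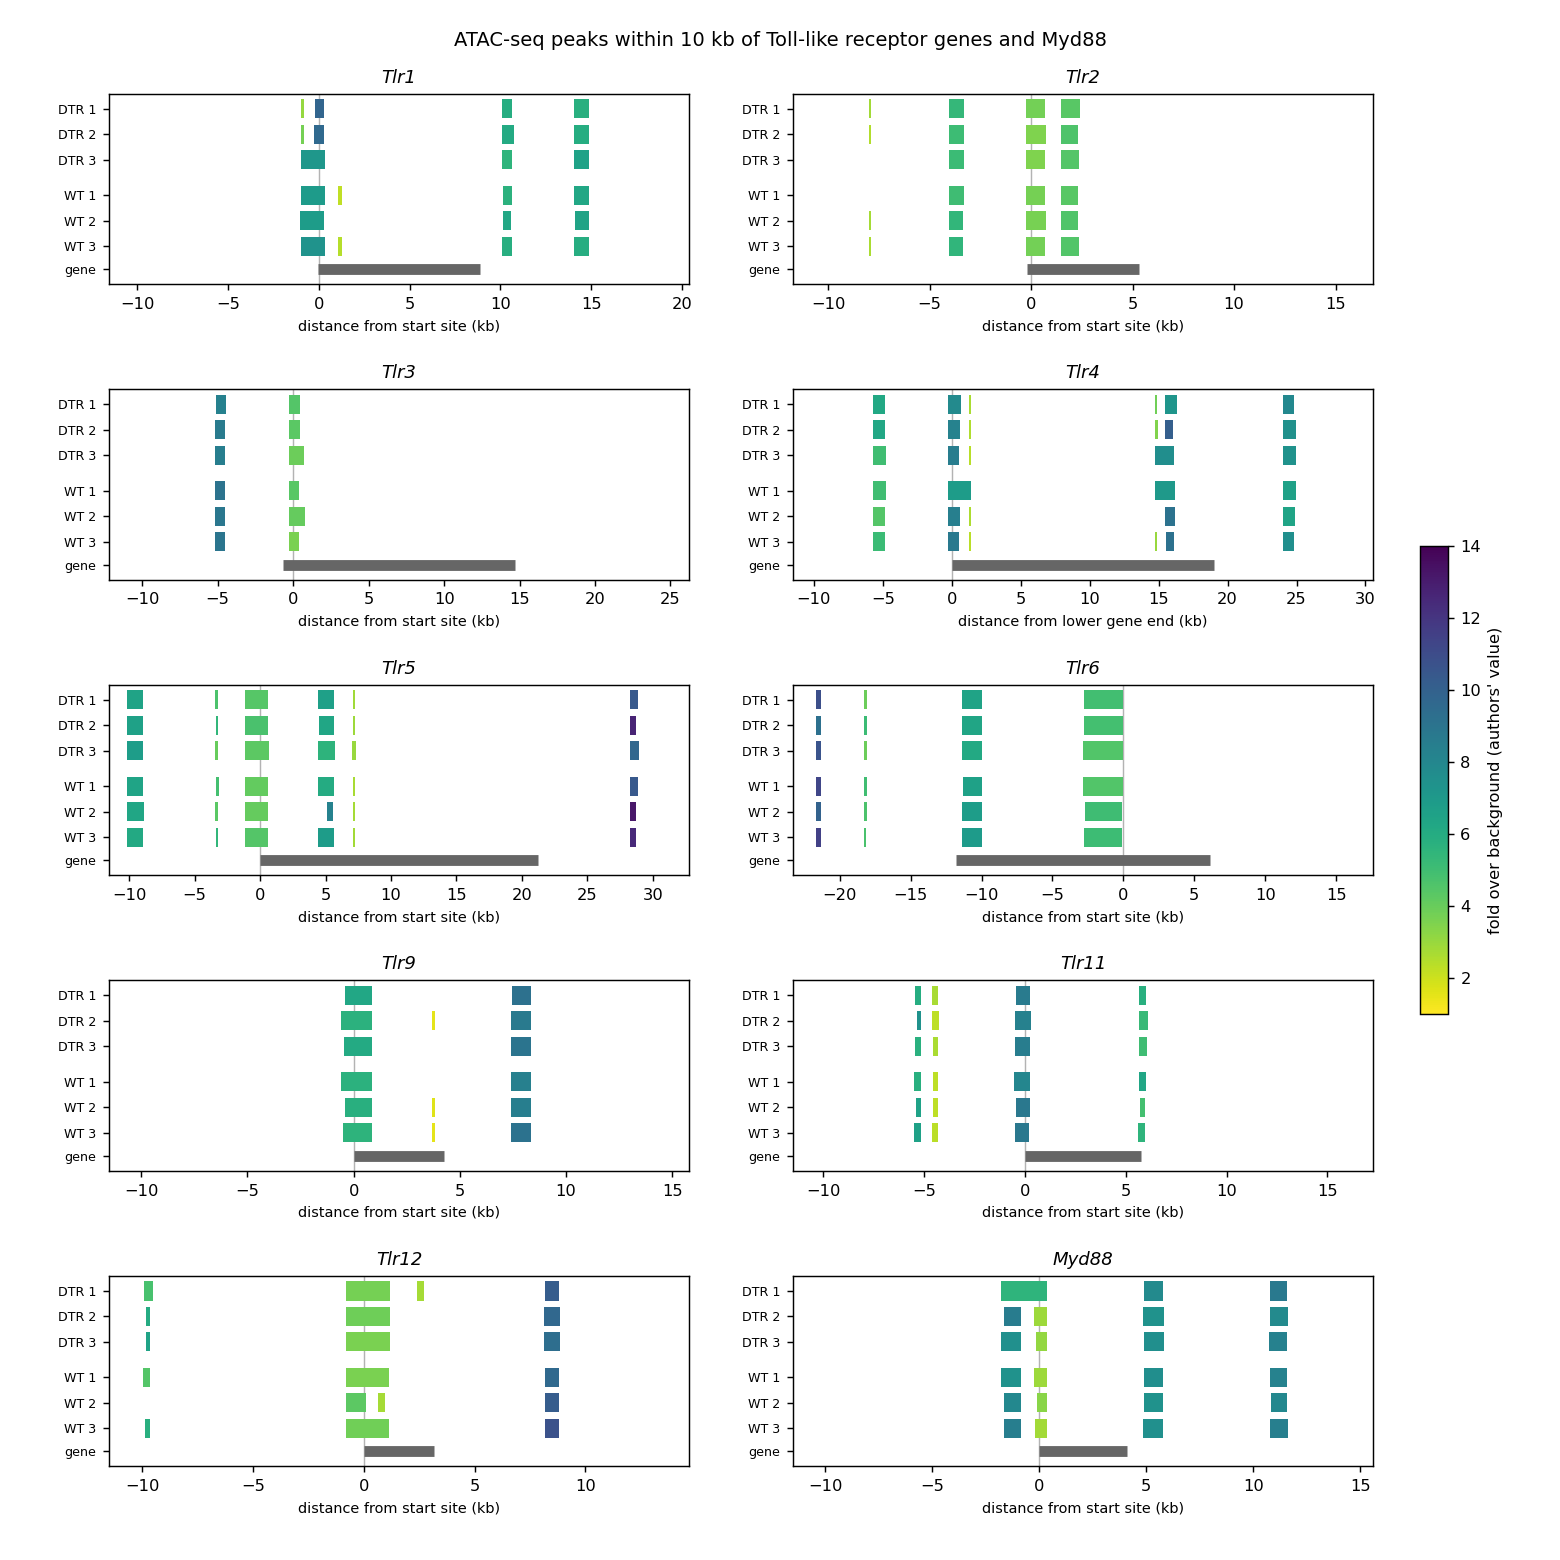
ATAC-seq peaks around the 10 genes, one row per library with DTR libraries above WT libraries, against distance from the start site in kb along the direction of transcription (for Tlr4, from the lower end of the gene body). Bars are peaks, coloured by fold over background, and the grey bar is the gene body; 33 of 38 regions have a bar in all 6 libraries.

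Tlr1, Tlr2 and Tlr6 encode the receptors for bacterial lipopeptides, with TLR2 pairing with either TLR1 or TLR6. At Tlr1 the promoter region at chr5:64933201-64934600 was called as 2 peaks in DTR libraries 1 and 2, and as 1 peak in DTR library 3 and all WT libraries. The peak over the start had folds of 9.81, 9.63 and 7.13 in DTR libraries 1 to 3, against 6.91, 6.85 and 7.33 in WT libraries 1 to 3. DTR libraries 1 and 2 were therefore above all others, while DTR library 3 lay among the WT libraries. The width of the region, as the sum of its peaks, was 717, 709 and 1323 bp in DTR libraries against 1343, 1314 and 1327 bp in WT libraries. In DTR libraries 1 and 2 the missing stretch left a separate piece of 199 and 192 bp, with folds of 3.05 and 3.7, with its outer edge at -987 and -982 bp from the start. The difference in width was -0.60 ± 0.27 (log2, SE) with an adjusted p of 0.68 by limma, and in fold 0.32 ± 0.12 with an adjusted p of 0.421 by limma. Without DTR library 3 the width difference was -0.90 ± 0.036 with an adjusted p of 0.0407 by limma, so the width passed the threshold when that library was left out and not with it. It is the DTR library whose width lay among the WT libraries, so leaving it out removes most of the DTR spread. In that run 27 regions were called over the genome. Leaving out any other single library gave adjusted p of 0.638 to 0.849 by limma. The second annotated Tlr1 start, 859 bp downstream of the first, had a peak over its promoter in no library. A weak region inside Tlr1 was found in WT libraries 1 and 3 alone, with folds of 2.24 and 2.44.

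Tlr2 had a broad peak over its start with a low fold, which stood above only 19.9% to 25.8% of the peaks of its list. Its fold was 3.75, 3.52 and 3.51 in DTR libraries against 3.73, 3.69 and 3.77 in WT libraries, and the groups overlapped. The strongest Tlr2 region was upstream, 3098 bp from the gene body at chr3:83844922-83845631, with a mean fold of 5.19 ± 0.12 in DTR and 5.32 ± 0.26 in WT (SD, n = 3 each). The gene body region beyond the start averaged 4.49 ± 0.12 in DTR and 4.49 ± 0.11 in WT (SD, n = 3 each). A further upstream peak, 7644 bp away, was called in DTR libraries 1 and 2 and in WT libraries 2 and 3, at folds of 2.51 to 2.78. These 3 nearer regions of Tlr2 had a peak in every library, and the far upstream peak did not.

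Tlr6 had the widest start region of the 10 genes, at 2702, 2701 and 2822 bp in DTR libraries and 2792, 2653 and 2684 bp in WT libraries. This single peak overlapped both annotated Tlr6 promoters, and its fold averaged 4.78 ± 0.20 in DTR and 4.88 ± 0.30 in WT (SD, n = 3 each). The annotated Tlr6 gene body reaches upstream of the start used here, to -11776 bp. The region near its upstream end, chr5:64969136-64970510, overlaps the promoter of the neighbour Fam114a1 and had folds of 6.46, 6.37 and 6.16 in DTR libraries against 6.56, 6.79 and 6.93 in WT libraries. All DTR libraries were below all WT libraries there, by -0.094 ± 0.056 (log2, SE), with an adjusted p of 0.62 by limma and an exact permutation p of 0.1, the smallest that 3 against 3 libraries can give. The strongest Tlr6 region lay 9523 bp beyond the gene body and inside Fam114a1, with a mean fold of 10.3 ± 0.86 in DTR and 10.9 ± 0.82 in WT (SD, n = 3 each). Its fold was among the highest at any of the 10 genes. Its −log10 q, 37.7 to 62.1 over the libraries, was below the 217 to 245 of the start region.

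Tlr4 and Tlr5 encode the receptors for lipopolysaccharide and for flagellin. Tlr4 is named only, without a promoter sequence, and its region over the lower end of the gene body, chr4:66827278-66828951, was used in place of a promoter. The strongest peak of that region had folds of 7.83, 8.31 and 8.53 in DTR libraries against 6.84, 8.46 and 8.74 in WT libraries. It stood above 70.2% to 85.2% of the peaks of its list, so Tlr4 had among the most enriched end regions of the receptor genes. WT library 1 was lowest, and it alone was called as 1 peak, of 1624 bp, where the others had 2 peaks that summed to 979 to 1081 bp. The region before the lower end, chr4:66821841-66822752, had folds of 6.19, 6.28 and 4.98 in DTR libraries against 5.01, 4.49 and 5.15 in WT libraries. DTR libraries 1 and 2 were above all WT libraries and DTR library 3 was among them, with a difference of 0.25 ± 0.10 (log2, SE), an unadjusted p of 0.0482 and an adjusted p of 0.467 by limma. Beyond the upper end the fold averaged 7.59 ± 0.29 in DTR and 6.86 ± 0.65 in WT (SD, n = 3 each), and the groups overlapped.

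Tlr5 had 6 regions, all in every library. Its start region averaged a fold of 4.46 ± 0.23 in DTR and 4.21 ± 0.24 in WT (SD, n = 3 each), and was 1760 to 1826 bp wide in DTR and 1783 to 1795 bp wide in WT. The farthest upstream region, 8876 bp from the gene body at chr1:182944602-182945876, had folds of 6.47, 6.56 and 6.81 in DTR libraries against 6.42, 6.29 and 6.15 in WT libraries. The DTR libraries were all above the WT libraries in fold there and all below them in width, at 1223, 1214 and 1212 bp against 1229, 1247 and 1229 bp. A weak region in the gene body, chr1:182961832-182962074, had folds of 2.84, 2.92 and 2.99 in DTR libraries and 2.71, 2.75 and 2.8 in WT libraries, again with the groups apart. The differences in fold were 0.072 ± 0.055 and 0.084 ± 0.054 (log2, SE), with adjusted p of 0.717 and 0.656 by limma. In the gene body region at chr1:182959227-182960538 the width was 1166, 1127 and 1302 bp in DTR libraries against 1175, 506 and 1165 bp in WT libraries, with a single narrow call in WT library 2. The region downstream of the gene had the highest group means in fold of the 33 regions found in all libraries, in DTR as in WT. Its folds were 10.4, 12.7 and 9.73 in DTR libraries against 10.4, 13.2 and 12.5 in WT libraries. It stood above 92.6% to 99.3% of the peaks of its list, and its groups overlapped.

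Tlr3 and Tlr9 encode endosomal receptors, for double-stranded RNA and for unmethylated CpG DNA, and Tlr11 and Tlr12 encode mouse receptors for profilin of the parasite Toxoplasma. Tlr3 had 2 regions in every library. Over its start the fold was 4.5, 4.34 and 3.92 in DTR libraries against 4.39, 4.09 and 3.62 in WT libraries. Upstream, 3790 bp from the gene body at chr8:45414865-45415551, the fold was 8.34, 8.65 and 8.5 in DTR libraries against 9.05, 8.83 and 8.95 in WT libraries. The upstream region was thus the stronger in each library, and its DTR folds were all below its WT folds, by -0.073 ± 0.053 (log2, SE) with an adjusted p of 0.697 by limma and an exact permutation p of 0.1. The groups overlapped over the start.

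Tlr9 had a start region with folds of 6.24, 5.7 and 6.11 in DTR libraries against 5.68, 5.81 and 5.59 in WT libraries. Its strongest region lay 3135 bp downstream of the gene body and averaged 8.97 ± 0.27 in DTR and 8.66 ± 0.37 in WT (SD, n = 3 each). Both were open in every library and overlapped between the groups. A faint peak inside the gene was called in DTR library 2 and in WT libraries 2 and 3, at folds of 1.53, 1.64 and 1.55. This faint peak sets the mean fold of the locus, which was 7.58, 4.23 and 7.43 in DTR libraries and 6.90, 4.33 and 4.28 in WT libraries.

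Tlr11 had the most enriched promoter peak of the 9 genes with a listed promoter in WT libraries, with folds of 8.62, 8.35 and 8.56 in DTR libraries against 8.01, 8.81 and 8.78 in WT libraries. It stood above 81.2% to 86.1% of the peaks of its list. The groups overlapped, and the difference was -0.0027 ± 0.061 (log2, SE) with an adjusted p of 0.993 by limma. Tlr12, in contrast, had a wide start region with folds of 3.71, 3.85 and 3.62 in DTR libraries against 3.61, 4.3 and 3.81 in WT libraries, above 22.7% to 33.8% of its list. Its width was 1956, 1958 and 1982 bp in DTR libraries against 1950, 1178 and 1943 bp in WT libraries. The groups did not overlap in width, but 2 of the WT libraries came close to the DTR libraries, and WT library 2 was the one called as 2 narrower peaks. The difference was 0.26 ± 0.21 (log2, SE) with an adjusted p of 0.79 by limma. When widths were divided by the library median, the groups overlapped here too. The strongest region near Tlr12 overlaps the promoter of the neighbour Zscan20 and averaged 9.73 ± 0.43 in DTR and 10.2 ± 0.57 in WT (SD, n = 3 each). The remaining Tlr12 regions were weaker, with a gene body peak in DTR library 1 alone and an upstream peak missing from WT library 2 alone.

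Myd88 encodes the adaptor itself, and its start lies 1276 bp from the start of the neighbour Acaa1a, a peroxisomal thiolase gene. The region over both starts, chr9:119339651-119341822, was called as 1 peak in DTR library 1 and as 2 peaks in the other 5 libraries. The peak over the Myd88 promoter had folds of 5.56, 2.89 and 3.09 in DTR libraries against 2.91, 3.31 and 2.82 in WT libraries, and DTR library 1, where it includes the neighbour's promoter, was the only one above the rest. Where it was called apart it was 488 to 632 bp wide. In the other 5 libraries it stood above 9.55% to 16.7% of the peaks of their lists, so the separate Myd88 promoter peak was weak in fold. Its −log10 q there was 38.9 to 57.5. The highest fold of the joint region was 5.56, 8.58 and 7.55 in DTR libraries and 7.43, 7.93 and 8.49 in WT libraries, and in the 5 libraries with 2 peaks it belonged to the peak on the Acaa1a side. Downstream of Myd88 a region 774 bp from the gene body averaged 7.61 ± 0.20 in DTR and 7.52 ± 0.15 in WT, and one 6650 bp away 8.30 ± 0.45 in DTR and 8.23 ± 0.25 in WT (SD, n = 3 each). Neither separated the groups.

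Ordered by the DTR mean, promoter peak fold was 8.86 at Tlr1, 8.51 at Tlr11, 6.02 at Tlr9, 4.78 at Tlr6, 4.46 at Tlr5, 4.25 at Tlr3, 3.85 at Myd88, 3.73 at Tlr12 and 3.59 at Tlr2. The WT means in the same order of genes were 7.03, 8.53, 5.69, 4.88, 4.21, 4.03, 3.01, 3.91 and 3.73. In the DTR libraries the ranges of Tlr1 and Tlr11 overlapped, as did those of each pair of neighbours from Tlr6 down to Tlr2, while Tlr9 stood apart from both its neighbours. The peaks differed in width and in being called whole or in pieces, so this order describes the lists and is no measure of openness. The Myd88 DTR mean includes 5.56 in DTR library 1, joined with the neighbour's promoter, beside 2.89 and 3.09 in DTR libraries 2 and 3. The Tlr1 DTR mean includes split peaks of 9.81 and 9.63 in DTR libraries 1 and 2, beside 7.13 in DTR library 3. No promoter peak had all DTR folds on one side of all WT folds.

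Compared gene by gene, the number of peaks did not separate DTR from WT at any of the 10 genes, where 3.27% of the 16247 genes were separated, 2.93% with DTR above WT and 0.345% below. Tlr4 had 6, 6 and 5 peaks in DTR libraries and 4, 5 and 6 in WT libraries, and Tlr3, Tlr5, Tlr6 and Tlr11 had the same number, 2, 6, 4 and 4, in every library. At Tlr1 the number was 4, 4 and 3 in DTR libraries against 4, 3 and 4 in WT libraries, and at Tlr2 it was 4, 4 and 3 against 3, 4 and 4. Counting joined regions in place of peaks, Tlr4 had 4 and Myd88 had 3 in every library. At these genes the number of peaks changed with peaks called whole or in pieces and, at Tlr4 in WT library 2, with a small side peak that was not called.

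Summed peak width also separated the groups at none of the 10 genes, against 20.6% of all genes, 19.7% with DTR above WT and 0.856% below. At Tlr1 it was 2093, 2187 and 2706 bp in DTR libraries against 2870, 2556 and 2935 bp in WT libraries. At Tlr12 it was 3321, 2825 and 2895 bp in DTR libraries against 2933, 1824 and 2809 bp in WT libraries. These were the members with the largest differences in either direction, -0.27 ± 0.12 and 0.28 ± 0.20 (log2, SE), with adjusted p of 0.429 and 0.563 by limma. The limma test with p adjusted over all 16247 genes called none of the members (adjusted p 0.429 to 0.997), where 0.0185% of genes were called higher and 0.00615% lower in DTR. At an unadjusted p under 0.05 the test counted 0 members, against 12.1% of all genes. The median difference over the members was 0.016 (log2), beside 0.074 over all genes.

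Mean fold, taken as the geometric mean over the peaks of a gene, separated the groups at Tlr6 alone, against 13.6% of all genes, 5.74% with every DTR library below every WT library and 7.85% the reverse. It was 6.06, 6.19 and 5.85 in DTR libraries against 6.40, 6.31 and 6.62 in WT libraries. The difference was -0.094 ± 0.045 (log2, SE) with an adjusted p of 0.667 by limma and an exact permutation p of 0.1. The groups overlapped when the window was 2 kb or 50 kb, where the difference was -0.062 and -0.0062. Tlr6 regions 2, 3 and 4 overlap the neighbour Fam114a1, and their fold differences were -0.094, -0.164 and -0.088 (log2). At the Tlr6 start region the difference was -0.030 and the groups overlapped. The limma test called none of the 10 members in fold (adjusted p 0.667 to 0.995), and none at an unadjusted p under 0.05, where 8.05% of all genes passed the latter. Over all genes 0.0123% were called higher and 0.178% lower in DTR. The median difference was 0.012 (log2) over the members and 0.00072 over all genes.

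**Figure D2:**
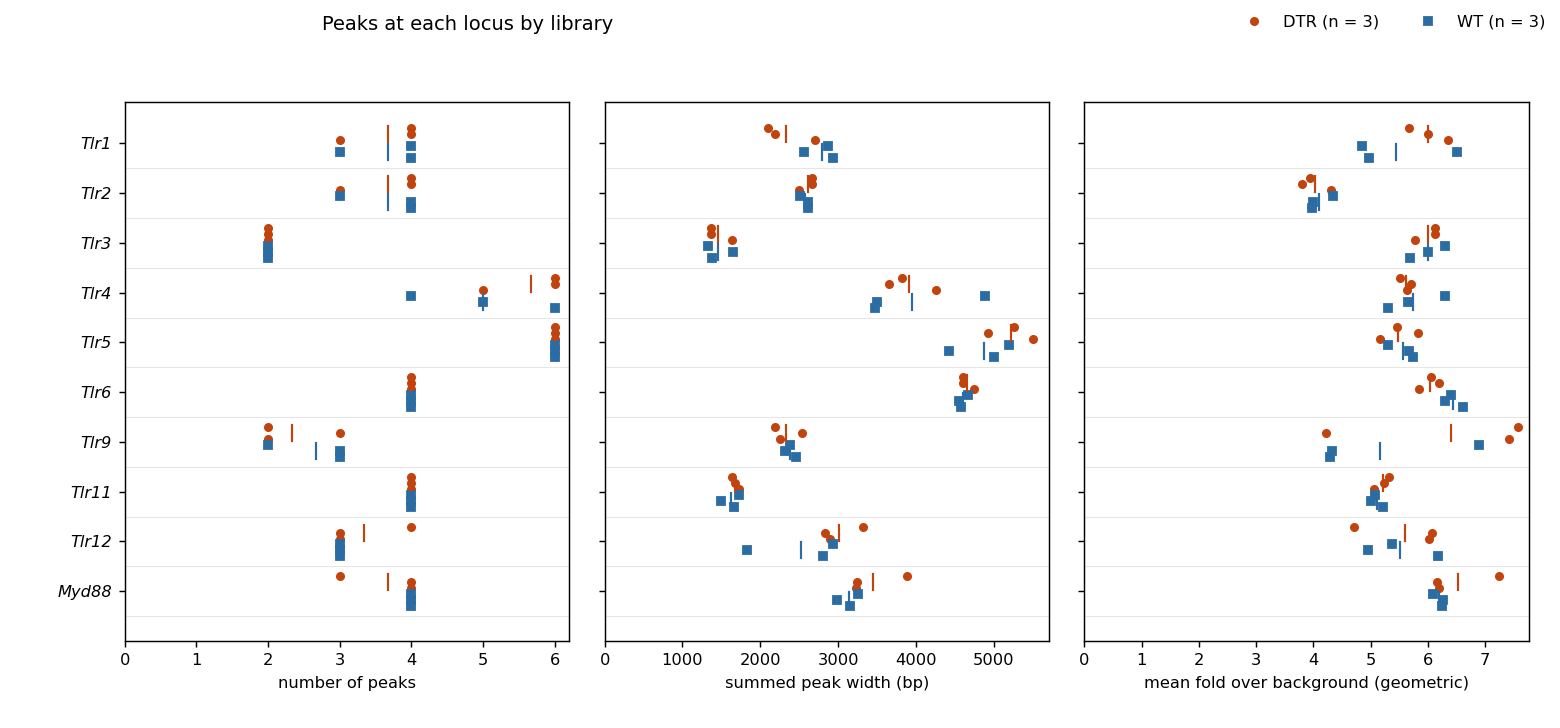
Number of peaks, summed peak width in bp and geometric mean fold for each of the 10 genes, with each point a library, orange for DTR and blue for WT (n = 3 each), and vertical ticks at the group means. The groups are apart in mean fold at Tlr6 and overlap or coincide in the other panels and genes.

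Taken region by region, 4 of the 33 shared regions had folds that did not overlap between the groups, 2 higher in DTR (both near Tlr5) and 2 lower (near Tlr3 and Tlr6). Over the 68712 shared regions of the genome 15.6% were separated in fold, 10.4% with all DTR folds above all WT folds and 5.15% below. The limma test called none of the 33 regions in fold, with a smallest adjusted p of 0.421, and 0.0% of all regions passed it in either direction. At an unadjusted p under 0.05 it counted 2 of the 33, the Tlr1 promoter region and the region before the lower end of Tlr4, against 10.6% of all regions. Widths did not overlap at 2 regions, the Tlr12 start with DTR higher and the far upstream Tlr5 region with DTR lower, against 14.8% of all regions, 13.0% with DTR higher and 1.87% with DTR lower. The limma test called none of the 33 regions in width (smallest adjusted p 0.68), where 0.192% of all regions were called wider and 0.0233% narrower in DTR. At an unadjusted p under 0.05 it counted 0 in width, against 7.45% of all regions. The median difference over the 33 regions was -0.013 in fold and 0.024 in width (log2), beside 0.013 and 0.044 over all shared regions.

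**Figure D3:**
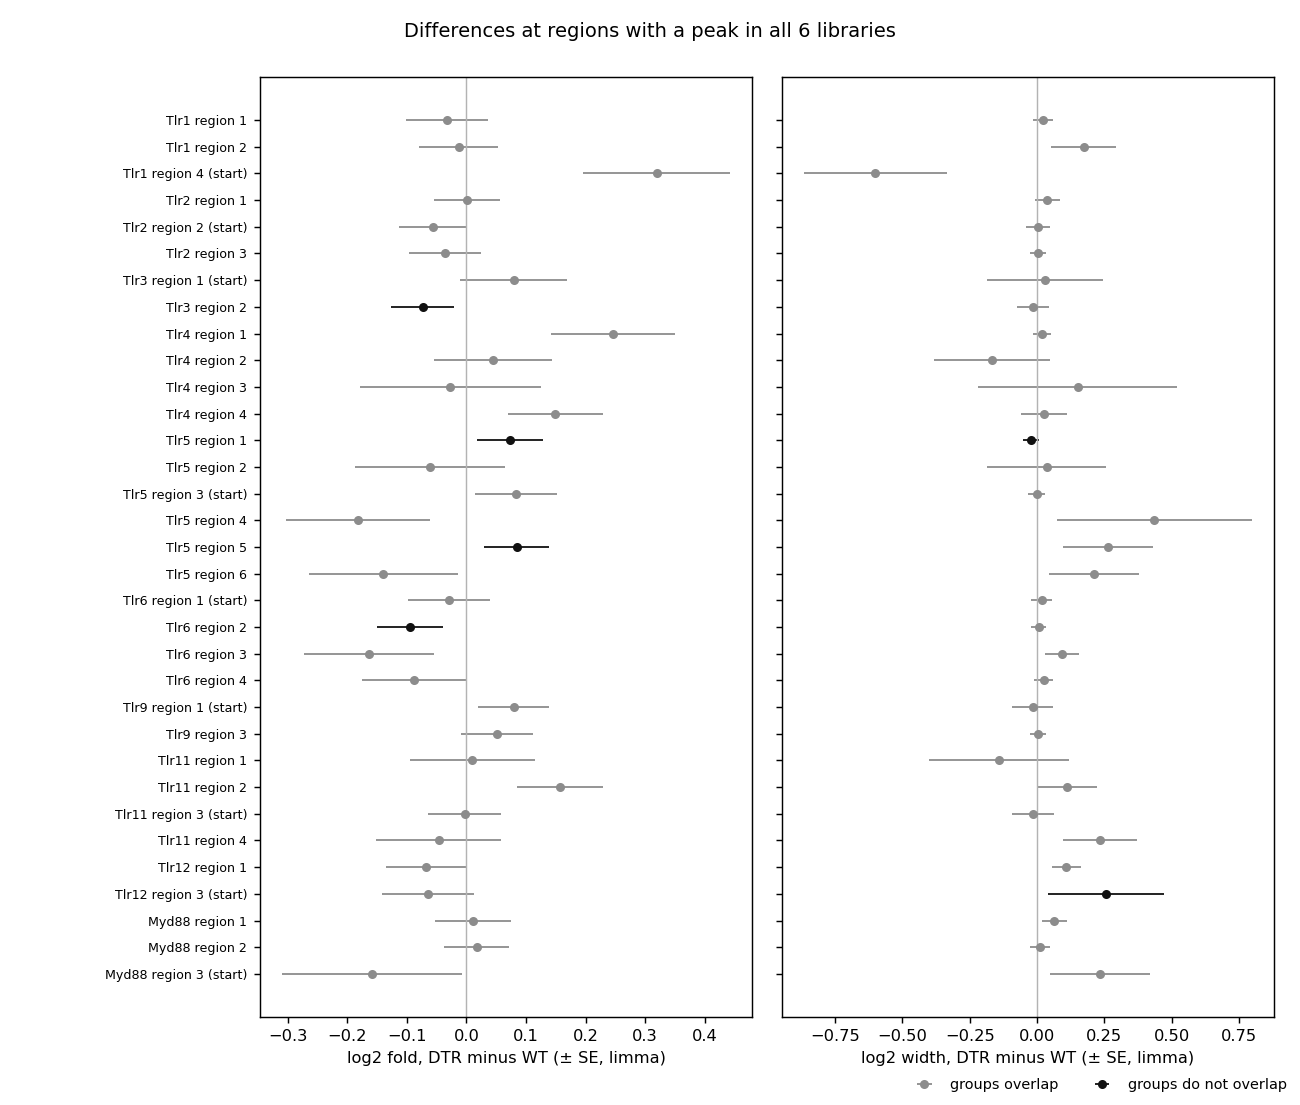
Difference between DTR and WT (log2, with SE from limma) in fold on the left and width on the right for the 33 regions with a peak in all 6 libraries, numbered along the chromosome within each gene. Black points mark regions whose groups do not overlap; fold differences run from -0.18 to 0.32 and width differences from -0.60 to 0.435, both extremes in the Tlr1 and Tlr5 regions.

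The largest difference in width, at the Tlr1 start, came with a region given as 1 peak in some libraries and as 2 in others. This was so at 5 of the 33 regions (15.2%), against 2151 of the 68712 shared regions (3.13%). They were the starts of Tlr1, Tlr12 and Myd88 and the lower end and the gene body of Tlr4. These regions were 1400 to 2172 bp wide, against a median of 919 bp over the 33 regions and 659 bp over all shared regions. The shares were not matched for width. In the Tlr4 gene body, chr4:66842299-66843895, a single peak was called in DTR library 3 and in WT libraries 1 and 2, at widths of 1399, 1456 and 701 bp. The other 3 libraries had a piece of 135 to 171 bp beside the main peak, at folds of 3.01 to 3.83. In DTR library 3 and WT library 1 that peak spanned the whole region, whereas in WT library 2 it was the main peak without the side piece. The number of peaks separated DTR from WT libraries at none of the 5 regions. Where a wide peak took the place of 2, its fold was below that of the stronger piece in the other libraries at the Tlr1, Tlr4 lower-end, Tlr12 and Myd88 regions, as the plot of these 5 regions shows.

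**Figure D4:**
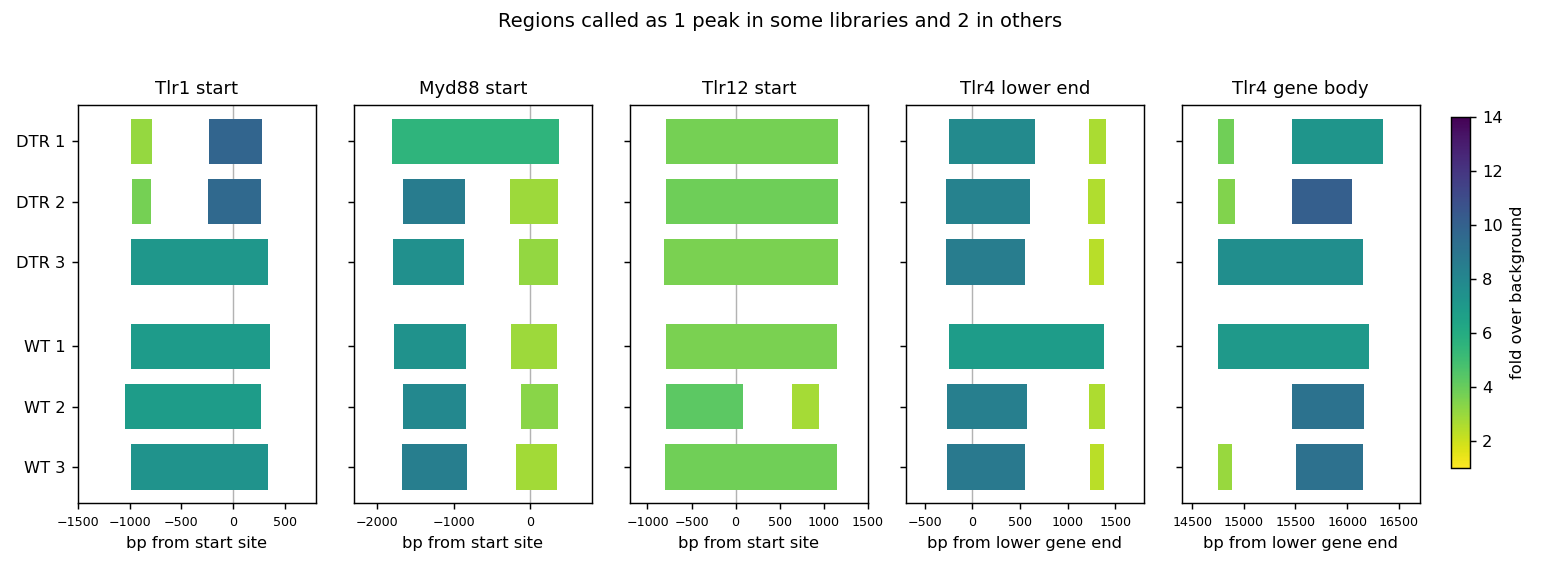
The 5 regions near member genes called as 1 peak in some libraries and 2 in others, one row per library with DTR above WT, against distance in bp from the start site (for Tlr4, from the lower end of the gene body). Bars are peaks coloured by fold; the Tlr1 start is split in DTR libraries 1 and 2 and the Myd88 start is joined in DTR library 1.

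Of the wider pathway, 40 genes were examined, and all had peaks in every library. They comprised the other receptors Tlr7, Tlr8 and Tlr13, 5 TIR adaptors, 10 coreceptor and trafficking genes, 14 proximal kinases and ligases, and 8 inhibitors. The limma test called none of the 40 in width (smallest adjusted p 0.301) or in fold (smallest adjusted p 0.612). At Tlr7, an endosomal receptor for single-stranded RNA, the number of peaks was 11, 10 and 10 in DTR libraries and 9, 9 and 9 in WT libraries. Its summed width was 7437, 7705 and 7239 bp in DTR libraries against 6862, 6479 and 6573 bp in WT libraries, a difference of 0.17 ± 0.046 (log2, SE) with an adjusted p of 0.301 by limma. Tlr7 was the only gene of the 40 with its peak numbers apart and the only one with a DTR-only region, beside 2.93% of all genes with peak numbers higher in every DTR library. Over the genome 0.82% of regions were DTR-only. That share counts regions, and the share of genes with such a region is not given, so the Tlr7 region cannot be set against it. Tlr7 is X-linked, as is Tlr8, which was apart in neither number nor width. The sex of the mice is not in the labels, and its part in these values was not tested. At Tlr8, a relative of Tlr7 beside it on the same chromosome, the mean fold was 4.71, 4.69 and 3.42 in DTR libraries against 4.60, 4.89 and 5.04 in WT libraries, with the groups overlapping. At Tlr13, a receptor for bacterial ribosomal RNA, it was 4.20, 4.19 and 4.06 in DTR libraries against 4.04, 3.90 and 4.45 in WT libraries, also overlapping.

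Mean fold was apart at 2 of the 40 genes, a smaller share than the 13.6% of all genes. At Tollip, an inhibitor of IRAK signalling, it was 10.1, 10.4 and 9.62 in DTR libraries against 9.47, 9.27 and 8.90 in WT libraries, a difference of 0.12 ± 0.049 (log2, SE) with an adjusted p of 0.612 by limma. At Tbk1, a kinase that activates interferon regulatory factors, it was 5.07, 5.04 and 4.99 in DTR libraries against 5.21, 5.31 and 5.34 in WT libraries, a difference of -0.072 ± 0.038 with an adjusted p of 0.716 by limma. Summed width was apart at 4 of the 40 genes, again a smaller share than the 20.6% of all genes, higher in DTR at Tlr7, Ticam2 and Tbk1 and lower at Otud7b. Ticam2 encodes TRAM, the adaptor that links TLR4 to interferon induction, and Otud7b a deubiquitinase. The median width difference over the 40 genes was 0.049 and the median fold difference -0.0021 (log2).

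**Figure D5:**
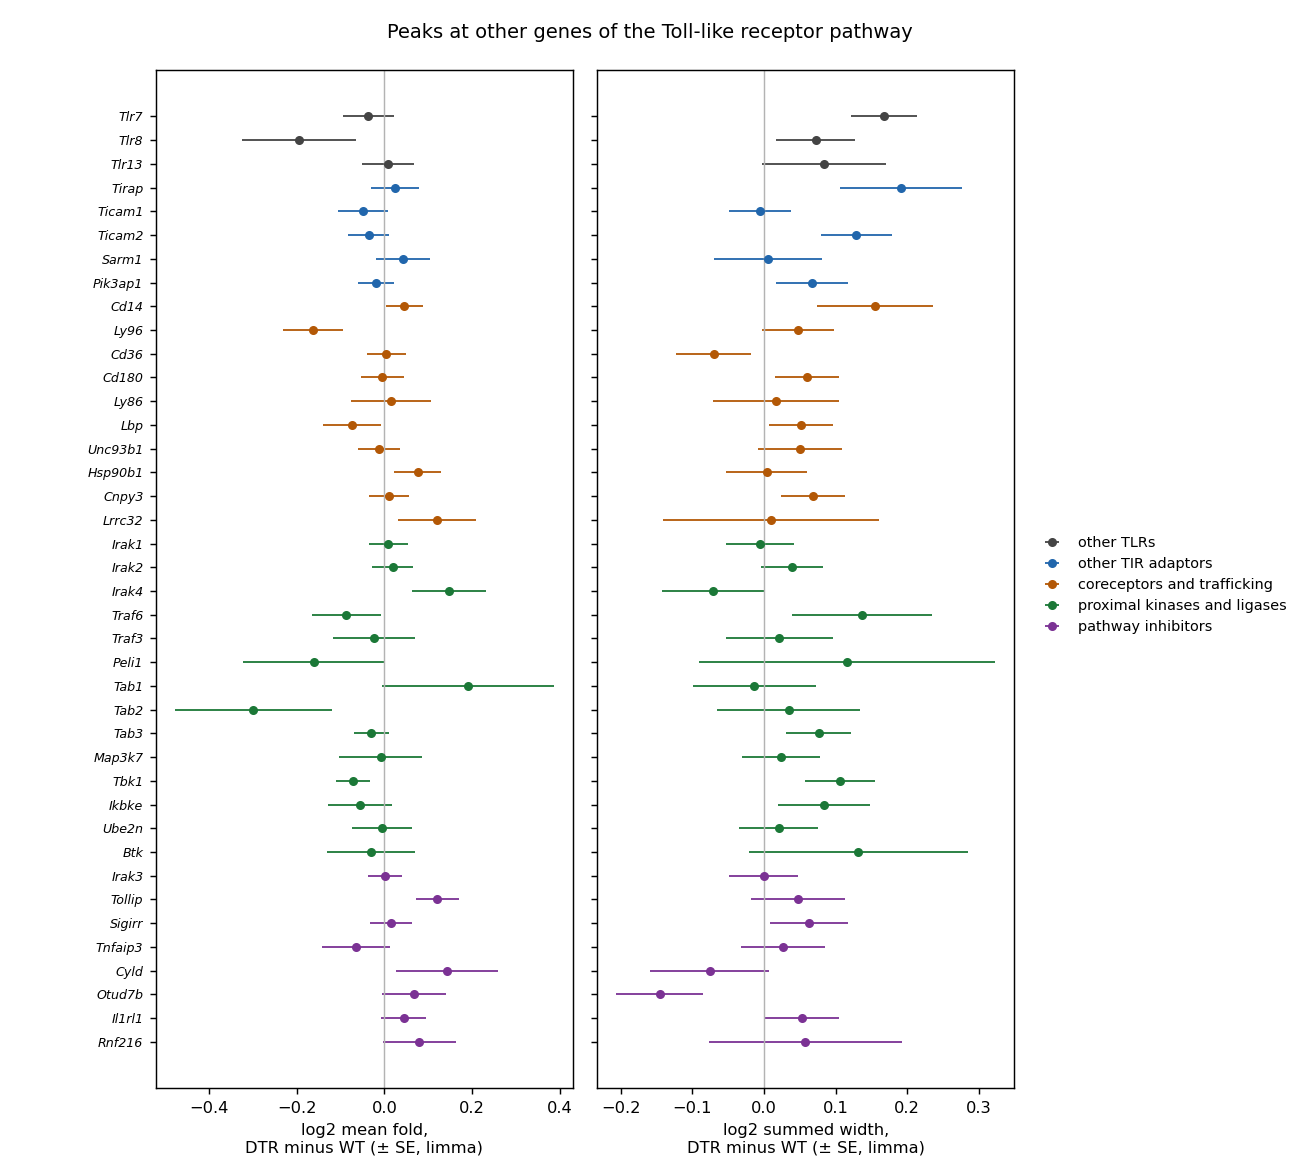
Difference between DTR and WT (log2, with SE from limma) in mean fold on the left and summed peak width on the right for the 40 other genes of the pathway, coloured by list. None passed an adjusted p of 0.05; Tlr7 had the smallest adjusted p in width, 0.301, and Tollip in fold, 0.612.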

How the data were processed

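ATAC-seq of monocytes was deposited as a broad peak list per library, 3 DTR and 3 WT. The submitters' processing notes name fastp, Bowtie, Bowtie2 2.4.4 and MACS2; they give neither run settings nor a genome build. Column 7 of the deposited lists is the peak's fold over background, a ratio, and the authors' column of −log10 q gives its q-value. The −log10 p column was used only to rank peaks for the lists of equal length. The score column was deposited too and not used. Only regions called as peaks appear, so a missing peak is not closed chromatin. Peaks were assigned to GRCm38 gene bodies extended by 10 kb. A region's width is the sum of its peaks and its fold that of its strongest peak; a gene's fold is the geometric mean of its peaks. Log2 width and fold, with no pseudocount, were tested with limma 3.58.1 in R 4.3.3 across all 16247 genes or 68712 regions with a peak in every library, with Benjamini-Hochberg adjustment and without a replicate block. Exact permutation tests were two-sided over 20 splits and cannot go below 0.1. "Apart" means that no value of a group overlaps the other's. The limma tests were tested on simulated data with a log2 change of 1 in 200 genes or regions. Recovered were 163 genes in width and 178 in fold, and 113 regions in width and 156 in fold. Called without a seeded change were 13, 10, 5 and 6 in the same order. Smaller changes were not simulated. Alternatives changed the q-value limit, list length, window, overlap, scaling, fold measure, region width, variance trend, block and single libraries; joined regions in place of peaks were added after the data were seen. Pathway genes named were those apart in fold (at most 5 a direction), those with a group-only region, and Tlr7, Tlr8 and Tlr13; those apart in number or width were named after their values were seen. The members and lists were chosen with earlier results of these data known. A further marker of the megakaryocyte and platelet list is not reported here.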

Additional observations from a re-analysis of the deposited data

How the results depend on the processing

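Alternative values of the member and region differences numbered 1085. Of these, 1059 moved by less than the replicate spread or kept their side of the threshold, and 25 moved by more. The remaining 1, the Tlr1 start width without DTR library 3, passed the threshold. In all, 121 values changed sign, but none with a call or groups apart in the main run. Some that changed sign had groups apart under the alternative. Tlr4 width did so without WT library 1, with DTR above. Tlr3 fold did so with the highest fold of the locus, from 0.003 to -0.0732 (log2). The limma calls at members were 0 in width and 0 in fold under every alternative run. Member regions called numbered 0 in fold, and 0 to 1 in width when a library was left out, the 1 being the Tlr1 start without DTR library 3. With q of at most 1e-05, genes called over the genome were 27 in width and 47 in fold, where the main counts were 4 and 31, and pathway genes apart were 2 in number and 4 in fold, where the main counts were 1 and 2. With lists of equal length, 1 member had its fold apart with DTR above and 0 pathway genes had their number apart. With a 2 kb window, 1 member was apart in width with DTR above, 0 in fold with DTR below, 0 pathway genes in number and 2 in width, 7 genes were called in width, and 21 member regions were found, 18 in all libraries. With a 50 kb window, 0 members were apart in fold with DTR below, 8 pathway genes in width and 1 in fold, 0 genes were called in width and 14 in fold, and of 98 member regions 83 were in all libraries and 1 was DTR-only. With at least 0.5 of a peak required in the window, 0 pathway genes were apart in number. Genes called in fold were 6 with a width-weighted mean and 0 with the highest fold of the locus. Dividing by the library median left 1 member region apart in fold with DTR above. In width it left 0 member regions apart with DTR above and 6 with DTR below. Requiring 200 bp in all libraries left 1 member region higher in fold and 1 region called over the genome. The shares of all genes and regions apart under these settings are not given, so the counts apart cannot be set against the genome. The causes were not tested.

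Leaving out single libraries, which leaves 2 against 3, gave 0 to 4 members apart in width with DTR above (4 without WT library 1) and 0 to 1 below, against 22.6% to 40.7% and 1.43% to 3.75% of all genes. In fold it gave 0 to 1 members above and 1 to 2 below (2 without DTR library 3), against 11.4% to 14.7% and 8.84% to 15.3% of all genes. Pathway genes apart were 1 to 3 in number, 4 to 18 in width and 3 to 11 in fold (18 and 11 without WT library 1), against 5.31% to 6.21%, 26.4% to 42.3% and 22.0% to 27.8% of all genes. Member regions apart in fold were 2 to 7 above (7 without WT library 3) and 2 to 7 below (7 without WT library 1), against 15.0% to 18.1% and 7.47% to 15.0% of all shared regions. In width they were 2 to 7 above (7 without DTR library 1) and 1 to 3 below, against 17.1% to 27.5% and 3.47% to 5.74%. Calls over the genome were 0 to 39 genes in width (39 without WT library 1), 20 to 40 in fold, and 27 to 495 regions in width (27 without DTR library 3, 495 without WT library 1), where the main count was 148. WT-only member regions were 0 to 1, the 1 without WT library 2.

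Same-numbered libraries did not deviate together, with correlations over genes of 0.00251, 0.0736 and -0.0316 in fold. With the replicate block, calls over the genome were 0 genes in width, 0 genes in fold and 0 regions in width, and 0 at members. Peak lists hold no read depth, so peaks missing from a list may reflect depth.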
